A study of Mus musculus with 20 samples.

Results

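Uterine transcriptomes were compared between mice of the PBMC-hCG group and untreated control mice on the evening before implantation. The comparison took the 10 libraries of these groups, 5 mice in each, out of the 20 libraries of the series, by their labels. All mice were B6D2F1 females aged 8 to 12 weeks, mated and staged with the plug morning as day 0.5, and 1 uterine horn per mouse was collected at 18:00 on day 3.5. Control mice were normally pregnant and received no treatment. PBMC-hCG mice had received 50000 peripheral blood mononuclear cells (PBMCs) in each horn on day 1.5 under anaesthesia, taken from non-pregnant mice and cultured with 5 IU/mL human chorionic gonadotropin (hCG), followed by 3 mg/kg of the antiprogestin RU486 subcutaneously at 9:00 on day 3.5. RU486, the cells, hCG and the injection procedure therefore differ together between these groups, and their parts in any difference cannot be told apart. Where a value against the implantation failure (IF) group is given, that group is 5 further mice that received the same dose of RU486 and no injection into the uterus.

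Implantation in the mouse follows a fixed order of ovarian hormones. Progesterone acts through the progesterone receptor, Pgr, in stroma and epithelium, halts the growth of the luminal epithelium and prepares the stroma for decidualization, and a short rise of estrogen then induces leukaemia inhibitory factor, Lif, in the glands and opens the period of receptivity. RU486, also called mifepristone, occupies the progesterone receptor and the glucocorticoid receptor and blocks both. Interferon-stimulated genes, which include antiviral enzymes, GTPases and transcription factors, are switched on by interferons through factors that include STAT2 and IRF9, and many of them are induced in the uterus of several species around implantation. PBMCs are mainly lymphocytes and monocytes, and hCG is the luteotropic hormone of the human embryo.

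Values are TPM, in which each library sums to the same total, so the depth behind them is unknown, and the totals lay between 999989 and 999999. Each mouse gave 1 library, and values below are listed in the order of replicates 1 to 5. The correlation of log2 values was 0.985 to 0.991 between PBMC-hCG mice. It was 0.982 to 0.992 among control replicates 1, 3, 4 and 5, and 0.961 to 0.965 between control replicate 2 and those 4, beside 0.963 to 0.978 between libraries of the 2 groups. In control replicate 2 the summed TPM of the 5 gland markers was 23928, beside 1249.7 to 7734 in the other control mice and 3790.5 to 10179 in PBMC-hCG mice. The summed TPM of 38 cell cycle genes was 269.8 in that library, 794 to 1578 in the other control mice and 473 to 785 in PBMC-hCG mice. The 4 adipose markers summed to 329.8 TPM in control replicate 2 and to at most 11.8 TPM in the other control mice. Results that move with this library are given with and without it. Markers of uterine epithelium, stroma, myometrium and endothelium were present in every library. Among 6 embryo markers, the oocyte gene Zp3 and the trophectoderm gene Cdx2 were listed at 0 in all 10 libraries. Tfap2c was at 0.564 to 4.09 TPM. Pou5f1, Nanog and Dppa3 were above 0 in some libraries, at most at 0.21 TPM.

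Of the 18706 genes above 0 TPM in all 20 libraries, 5941 (31.8%) passed limma's test of log2(TPM + 0.1) at an adjusted p-value threshold of 0.05, with 3772 higher (20.2%) and 2169 lower (11.6%) in PBMC-hCG mice. Below, a gene rose or fell where it passed this test, and the shares of 20.2% and 11.6% are the background for counts of list members. A change of at least 2-fold in addition was found for 482 genes that rose (2.58%) and 348 that fell (1.86%). By the criteria of the study, a 2-fold change and a raw p-value under 0.05, 887 genes (4.74%) were differentially expressed genes (DEGs), 511 of them higher and 376 lower. All 5 PBMC-hCG values lay above all 5 control values in 2477 genes (13.2%) and below them in 948 (5.07%). The balance of directions depended on the scale. The median log2 fold change of all tested genes was 0.08 as deposited, 0.01 after quantile normalization and 0.003 with library medians aligned. Higher and lower adjusted calls then numbered 3208 and 2800 with quantile normalization and 2830 and 2949 with aligned medians, and higher and lower DEGs 394 and 482, and 403 and 467. Without control replicate 2 the adjusted calls numbered 4317 higher (23.1%) and 3196 lower (17.1%). The RNA came from whole horns, so a lower level of a transcript in each cell and fewer cells of the type that makes it cannot be told apart.

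**Figure D1:**
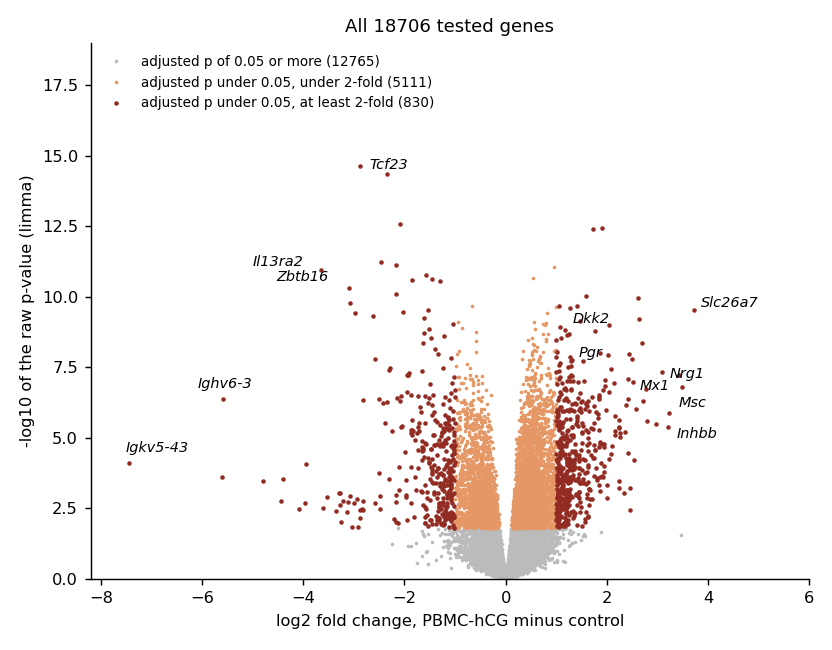
Log2 fold change (horizontal, PBMC-hCG minus control) against −log10 of the raw p-value of limma's test (vertical) for 18706 genes, 1 point each, coloured by adjusted p-value and fold change. Slc26a7 (3.72) lies farthest right among the labelled genes and the immunoglobulin segment Igkv5-43 (-7.44) farthest left, and Tcf23 (-2.88) lies highest.

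Slc26a7 (NCBI gene 208890, chromosome 4, 14502430 to 14621946), an anion exchanger of the SLC26 family, showed the largest rise among the genes that averaged 1 TPM or more and whose groups did not overlap. Its values were 65.8, 164, 134, 80.7 and 114 TPM in PBMC-hCG mice and 8.32, 5.804, 9.86, 9.96 and 6.6997 TPM in control mice, log2 fold change 3.72 (standard error 0.31, adjusted p = 2.21e-07). The lowest treated mouse was thus well above the highest control mouse. Msc, a basic helix-loop-helix repressor also called musculin, was at 98.6, 53.1, 41.9, 70.7 and 60.2 TPM in PBMC-hCG mice and 3.36, 38.1, 3.87, 3.41 and 6.82 TPM in control mice (3.23, standard error 0.46, adjusted p = 5.74e-05). Control replicate 2 was the highest control mouse, just below the treated mice, and without it the log2 fold change was 3.87 (adjusted p = 5.92e-09). Nrg1, the ERBB ligand neuregulin 1, rose by 3.09 from 0.288 to 1.37 TPM in control mice to 4.63 to 12.3 TPM in PBMC-hCG mice (standard error 0.35, adjusted p = 7.11e-06). Inhbb and Mx1, the fifth and the tenth of the 10 largest rises, are described with their pathways. The other 5 were LOC108168719 (3.49), Gm30417 (3.43), LOC115490167 (2.98), Speer4cos (2.79) and Speer8-ps1 (2.78), loci of a family of near-identical copies or without a described function, whose reads may be shared. Of the 10 largest falls, 9 were immunoglobulin genes and 1 was Il13ra2. Outside the immunoglobulin genes, a set of falls chosen after the values had been seen, the next were Zbtb16, BB123696 (-3.08), the antibody joining chain Jchain, and Tcf23 (NCBI gene 69852, chromosome 5, 30968602 to 30988062), a basic helix-loop-helix factor of the uterus. Tcf23 was at 25.03, 18.5, 15.7, 18.4 and 20.6 TPM in PBMC-hCG mice and 127, 166, 146, 142 and 139 TPM in control mice, with log2 fold change -2.88 (standard error 0.12, adjusted p = 4.25e-11), and its groups were far apart. Cd36, a fatty acid translocase and scavenger receptor, was at 3.92 to 6.403 TPM in PBMC-hCG mice and 20.2 to 46.1 TPM in control mice (-2.62, adjusted p = 3.03e-07), and the cytosolic sulfotransferase Sult1d1 was at 13.5 to 33.7 TPM in PBMC-hCG mice and 115 to 173 TPM in control mice (-2.59, adjusted p = 3.23e-06).

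Steroid receptor transcripts were higher in PBMC-hCG mice, whereas several well-known progesterone-induced genes were lower. Of 9 receptor genes listed, 8 were tested and 6 rose (5 to 6 with each mouse left out), with a median log2 fold change of 0.53 beside 0.08 over all tested genes. The progesterone receptor gene Pgr (NCBI gene 18667, chromosome 9, 8898900 to 8968611) was at 151, 102, 83.8, 107 and 126 TPM in PBMC-hCG mice and 52.1, 38.03, 42.3, 53.1 and 44.1 TPM in control mice, with log2 fold change 1.29 (standard error 0.14, adjusted p = 3.53e-06). Every PBMC-hCG mouse was above every control mouse. Esr1, the estrogen receptor of the uterus, was at 166, 165, 157, 162 and 154 TPM in PBMC-hCG mice and 115, 113, 104, 112 and 97.99 TPM in control mice (0.57, standard error 0.06, adjusted p = 2.12e-06). This difference was small in size, but the spread within each group was smaller still. The glucocorticoid receptor gene Nr3c1 was at 28.6, 33.9, 32.2, 31.6 and 29.2 TPM in PBMC-hCG mice and 21.3, 18.7, 20.7, 21.4 and 19.1 TPM in control mice (0.62, standard error 0.08, adjusted p = 2.71e-05), again without overlap. The mineralocorticoid receptor gene Nr3c2 rose by 1.11 (adjusted p = 0.00327) and the membrane progesterone-binding component Pgrmc1 by 0.49 (adjusted p = 0.00853). Pgrmc2 (-0.06, adjusted p = 0.542) and the membrane estrogen receptor gene Gper1 (0.20, adjusted p = 0.582) did not pass.

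Among 23 progesterone receptor targets, 22 were tested, of which 8 fell in each of the 10 fits with a mouse left out as in the full one and 2 rose, with a median of -0.17 (-0.48 without control replicate 2). Il13ra2 (NCBI gene 16165, chromosome X, 147383478 to 147429192), a decoy receptor for interleukin 13, was at 2.56, 2.24, 4.24, 3.26 and 4.19 TPM in PBMC-hCG mice and 30.8, 57.004, 35.6, 43.6 and 44.2 TPM in control mice, with log2 fold change -3.65 (standard error 0.25, adjusted p = 2.29e-08). Zbtb16, the zinc finger repressor PLZF induced by progesterone and glucocorticoids, was at 4.17, 3.94, 4.18, 4.69 and 3.599 TPM in PBMC-hCG mice and 32.3, 46.3, 33.9, 37.04 and 31.6 TPM in control mice (-3.10, standard error 0.23, adjusted p = 6.07e-08). In both genes the highest treated mouse was far below the lowest control mouse. Fkbp5, an immunophilin of the steroid receptor complex, was at 11.8, 8.56, 9.48, 7.804 and 9.32 TPM in PBMC-hCG mice and 43.3, 31.8, 44.8, 44.2 and 49.4 TPM in control mice (-2.17, standard error 0.15, adjusted p = 2.02e-08). Follistatin, Fst, which binds activins, fell by 2.82 (adjusted p = 3.1e-05), from 40.001 to 82.6 TPM to 6.19 to 13.2 TPM. Hand2 (-0.52, adjusted p = 0.0147) and the chaperone gene Fkbp4 (-0.52, adjusted p = 0.00212) fell by smaller amounts. Not every target followed. The retinoic acid hydroxylase gene Cyp26a1, a progesterone-induced gene of the epithelium, was at 257, 299, 286, 242 and 290.5 TPM in PBMC-hCG mice and 89.05, 97.6, 117, 110.4 and 173 TPM in control mice (1.26, standard error 0.13, adjusted p = 2.98e-06), so that it was higher in every treated mouse. Ptch1, the hedgehog receptor, rose by 0.59 (adjusted p = 0.0477). Indian hedgehog, Ihh, the epithelial ligand, ranged widely among control mice, 47.4, 4.83, 39.4, 39.5 and 12.9 TPM, and was at 21.8, 10.2, 12.1, 9.502 and 24.4 TPM in PBMC-hCG mice (-0.58, adjusted p = 0.473, and -1.11 (adjusted p = 0.0833) without control replicate 2). Ptch1 did not pass when control replicate 2 or 5 or PBMC-hCG replicate 1, 2, 3, 4 or 5 was left out (adjusted p up to 0.117).

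**Figure D2:**
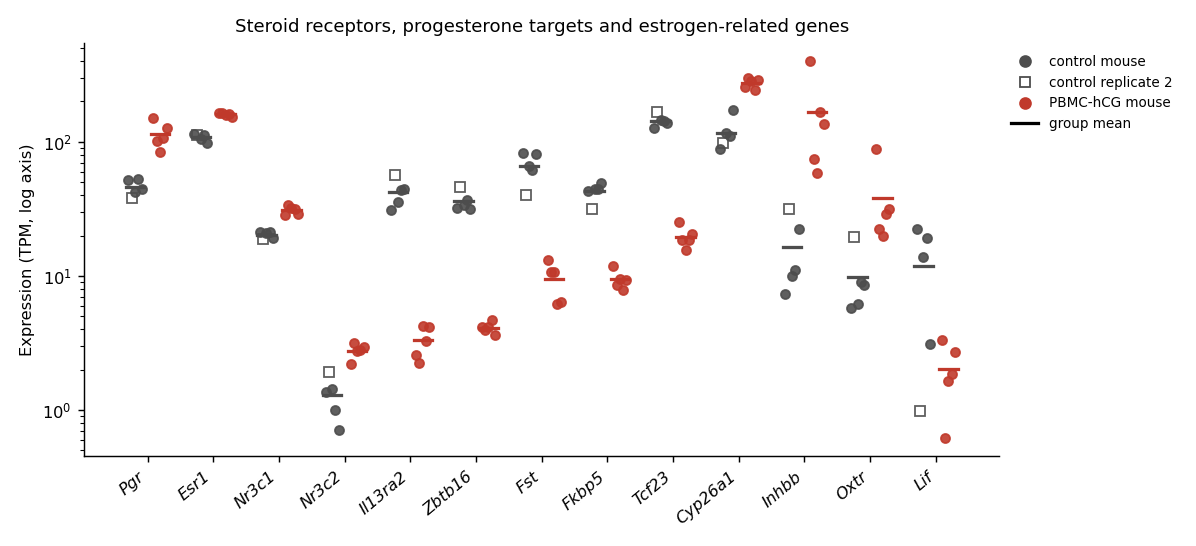
TPM on a log axis for 13 genes in 5 control mice (grey, with control replicate 2 as an open square) and 5 PBMC-hCG mice (red), with bars at the group means. Pgr, Esr1 and Nr3c1 lie higher in PBMC-hCG mice, Il13ra2, Zbtb16, Fst, Fkbp5 and Tcf23 lie lower without overlap, Cyp26a1 lies higher, and the Lif values of the groups overlap.

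All 18 listed glucocorticoid receptor targets were tested, and 8 fell and 3 rose, with a median of -0.31. Besides Zbtb16 and Fkbp5, which are shared with the progesterone list, the falls were those of Errfi1, an EGF receptor inhibitor (-1.86, adjusted p = 2.53e-05), the sulfotransferase Sult1a1 (-1.14, adjusted p = 0.000239), the metallothioneins Mt2 (-1.06, adjusted p = 0.000349) and Mt1 (-0.77, adjusted p = 6.03e-05), Per1 (-0.69, adjusted p = 0.00094) and Tsc22d3, the leucine zipper protein GILZ (-0.68, adjusted p = 0.0257). Errfi1 was at 97.3, 53.2, 43.4, 55.8 and 53.97 TPM in PBMC-hCG mice and 165, 267, 203, 217 and 222 TPM in control mice, without overlap. The genes of that list that rose were 3 of fuel use and growth. Pdk4, which restrains glucose oxidation, rose by 1.40 (adjusted p = 0.00664), Angptl4, a lipoprotein lipase inhibitor, by 0.99 (adjusted p = 0.00347) and the mTOR inhibitor Ddit4 by 0.44 (adjusted p = 0.0107). For Pdk4, control replicate 2 (16.7 TPM) lay among the PBMC-hCG mice (10.8 to 17.4 TPM), whereas the other control mice lay between 2.62 and 4.87 TPM. Sgk1 (-0.27, adjusted p = 0.464), Dusp1 (0.45, adjusted p = 0.306) and Hsd11b1 (-0.34, adjusted p = 0.518) did not pass. Tsc22d3 did not pass when control replicate 2 or PBMC-hCG replicate 1 or 5 was left out (adjusted p up to 0.0635).

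Of 29 early estrogen response genes, 7 rose (5 to 9 with each mouse left out) and 4 fell, with a median of 0.39. These were 24.1% and 13.8% of them, beside 20.2% and 11.6% of all tested genes, so the shares at any fold change lay near the background. The change was at least 2-fold in 6 that rose and 4 that fell, beside 2.58% and 1.86% of all tested genes. The genes are described one by one. Inhbb (NCBI gene 16324, chromosome 1, 119415463 to 119422248), the activin and inhibin subunit beta B, was at 398, 74.8, 58.4, 167 and 135 TPM in PBMC-hCG mice and 7.32, 31.7, 9.97, 10.99 and 22.5 TPM in control mice, with log2 fold change 3.20 (standard error 0.50, adjusted p = 0.000127). PBMC-hCG mice varied several-fold among themselves, but the lowest of them was above the highest control mouse. Plk2, a polo-like kinase, was at 243, 120.1, 56.97, 118 and 129.5 TPM in PBMC-hCG mice and 38.9, 22.8, 26.9, 41.2 and 31.7 TPM in control mice (1.93, standard error 0.34, adjusted p = 0.000341). Ramp3, a partner of the adrenomedullin receptor, was at 294, 80.96, 62.3, 104 and 108 TPM in PBMC-hCG mice and 26.8, 77.01, 23.4, 29.8 and 21.6 TPM in control mice (1.81, adjusted p = 0.00276), where control replicate 2 overlapped the treated mice. PBMC-hCG replicate 1 was the highest library for all 3 genes. The remaining rises were those of the transcription factors Fos (1.51, adjusted p = 0.0436) and Jun (0.47, adjusted p = 0.0222), the stress gene Gadd45g (1.24, adjusted p = 0.0127) and the vasodilator peptide gene Adm (1.61, adjusted p = 4.22e-05). The falls were those of the growth genes Ccnd1, cyclin D1 (-1.63, adjusted p = 0.000418), Igf1 (-1.63, adjusted p = 1.31e-06) and Myc (-1.30, adjusted p = 3.67e-08), and of Errfi1. Ccnd1 was at 28.04, 24.4, 20.2, 15.8 and 23.04 TPM in PBMC-hCG mice and 75.3, 27.8, 82.8, 81.8 and 101 TPM in control mice. Igf1, a growth factor of the stroma, was at 48.5, 49.9, 50.3, 43.6 and 44.9 TPM in PBMC-hCG mice and 167, 114, 162, 184 and 118 TPM in control mice. Fos did not pass when control replicate 1, 2 or 3 or PBMC-hCG replicate 2, 4 or 5 was left out (adjusted p up to 0.115). Jun did not pass when control replicate 3 or PBMC-hCG replicate 2 or 5 was left out (adjusted p up to 0.0668).

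Of 20 late response genes, 16 were tested, 3 rose and 1 fell (18.8% and 6.25%, near or below the shares of all tested genes at any fold change). The change was at least 2-fold in 1 that rose and 1 that fell. Complement C3 rose by 0.75 (adjusted p = 0.00183), and the peptidylarginine deiminase genes Padi1 by 1.17 (adjusted p = 0.0157) and Padi4 by 0.60 (adjusted p = 0.0409). The epithelial gene Sprr2f was at 23.003, 5.797, 4.04, 4.82 and 19.8 TPM in PBMC-hCG mice and 85.9, 11.04, 84.4, 109 and 12.9 TPM in control mice (-2.20, adjusted p = 0.0289). Control replicates 2 and 5 lay among the treated mice for this gene, so the groups overlapped. Lactotransferrin, Ltf, a classical estrogen-induced secretion, ranged from 8.57 to 84.99 TPM in control mice and from 11.1 to 57.9 TPM in PBMC-hCG mice (-0.14, adjusted p = 0.877), and Muc1 differed by 0.27 (adjusted p = 0.271). Padi4 did not pass when control replicate 1, 3, 4 or 5 or PBMC-hCG replicate 2, 3 or 4 was left out (adjusted p up to 0.114). Sprr2f did not pass when control replicate 1, 3 or 4 or PBMC-hCG replicate 2, 3 or 4 was left out (adjusted p up to 0.0801).

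Of 14 tested genes of the inhibin and activin system, 6 rose, 3 fell and 5 did not pass, with the same counts of calls in each of the 10 fits with a mouse left out. The ligand subunit Inhba rose by 1.20 (adjusted p = 0.0115) from levels of 0.636 to 1.12 TPM, and the receptor genes Acvr1 (0.32), Acvr1b (0.40) and Acvr2a (0.27) and the signal transducer Smad3 (0.54) rose by less. The antagonists Fst, Fstl3 (-0.82, adjusted p = 0.0108) and the inhibin co-receptor Tgfbr3 (-0.49, adjusted p = 0.00105) fell. Of 16 tested genes of EGF signalling among 21 listed, 8 rose (4 without control replicate 1 and up to 9 without control replicate 2) and 2 fell. The shares were 50% and 12.5%, beside 20.2% and 11.6% of all tested genes. The rises numbered 4 with library medians aligned and 5 with quantile normalization. Besides Nrg1, the ligands Nrg2 (1.28, adjusted p = 0.000204) and betacellulin, Btc (0.96, adjusted p = 0.0378), and the receptors Erbb3 (0.71, adjusted p = 0.0135) and Erbb2 (0.44, adjusted p = 0.0247) rose, as did 3 further members. Nrg4 was at 2.41, 2.48, 2.82, 3.71 and 3.25 TPM in PBMC-hCG mice and 5.87, 6.52, 5.57, 7.13 and 5.99 TPM in control mice and fell by 1.07 (adjusted p = 0.00368). Amphiregulin, Areg, a progesterone-induced ligand of the luminal epithelium, was listed at 0 in some libraries and was not tested. It was at 15.8, 0, 10.2, 17.2 and 4.76 TPM in control mice and 1.75, 0.163, 0, 0 and 0.1596 TPM in PBMC-hCG mice, so that all control mice other than control replicate 2 were above the treated mice. Btc did not pass when control replicate 1, 3, 4 or 5 or PBMC-hCG replicate 2, 3 or 4 was left out (adjusted p up to 0.105). Erbb2 did not pass when control replicate 1, 3 or 4 or PBMC-hCG replicate 2 or 4 was left out (adjusted p up to 0.0721).

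Of 27 implantation genes, 6 rose and 4 fell, with a median of 0.07. These were 22.2% and 14.8% of them, beside 20.2% and 11.6% of all tested genes, again near the background. Lif, the cytokine needed for attachment, was at 3.31, 0.622, 1.66, 1.86 and 2.72 TPM in PBMC-hCG mice and 22.2, 0.976, 13.8, 19.3 and 3.08 TPM in control mice, with log2 fold change -1.95 (standard error 0.66, adjusted p = 0.0304). Control replicates 2 and 5 lay among the treated mice, and the other control mice above them. Without control replicate 2 the log2 fold change was -2.64 (adjusted p = 0.000756). Foxa2, the transcription factor of gland cells, was at 5.23, 8.296, 8.301, 5.96 and 6.77 TPM in PBMC-hCG mice and 15.4, 9.03, 13.5, 12.4 and 8.72 TPM in control mice (-0.75, standard error 0.20, adjusted p = 0.00841), with no overlap. The receptor genes of the Lif pathway rose, Lifr by 0.58 (adjusted p = 0.0138) and Il6st, which encodes gp130, by 0.46 (adjusted p = 0.0252). Stat3, their effector, was at 168, 149.7, 149.9, 145 and 164 TPM in PBMC-hCG mice and 149, 104, 137, 147 and 144 TPM in control mice (0.20, adjusted p = 0.246). Klf5 (0.81, adjusted p = 0.000606) and the integrin genes Itgb3 (0.63, adjusted p = 0.0073) and Itgav (0.31, adjusted p = 0.0379) rose. The homeobox genes Hoxa11 and Hoxa10, which the stroma needs to answer progesterone, fell (-0.81, adjusted p = 8.41e-05, and -0.50, adjusted p = 0.00906). Hoxa11 was at 117, 106, 119, 133 and 136 TPM in PBMC-hCG mice and 208, 222, 229, 214 and 194 TPM in control mice. Bmp2 (0.59, adjusted p = 0.177), Wnt4 (0.88, adjusted p = 0.114), Msx1 (0.11, adjusted p = 0.706) and Ptgs2 (-0.73, adjusted p = 0.333) did not pass. For Wnt4, PBMC-hCG replicate 1 stood at 23.3 TPM and the other treated mice between 6.18 and 7.79 TPM. Control replicate 5 stood at 13.8 TPM for Bmp2, with the other control mice at 2.71 to 4.84 TPM and PBMC-hCG mice at 6.68 to 9.61 TPM. The adjusted p of Bmp2 ranged from 0.00975 to 0.415 with each mouse left out. Lif did not pass when control replicate 1, 3 or 4 or PBMC-hCG replicate 2, 3 or 4 was left out (adjusted p up to 0.0913). Il6st did not pass when control replicate 5 or PBMC-hCG replicate 3 or 5 was left out (adjusted p up to 0.0659). Itgav did not pass when control replicate 1, 2, 3 or 4 or PBMC-hCG replicate 1, 2 or 4 was left out (adjusted p up to 0.0979).

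Interferon-stimulated genes were higher as a list. All 30 listed genes were tested, and all 30 rose (29 without control replicate 1 and up to 30 without control replicate 2), with a median log2 fold change of 1.42 beside 0.08 over all tested genes. The rise was at least 2-fold in 22 of them, and in 25 every PBMC-hCG mouse was above every control mouse, shares to be set beside the 2.58% and 13.2% of all tested genes. The summed level of the list was 1643, 2343, 2483, 2518 and 1518 TPM in PBMC-hCG mice and 1013, 1252, 959, 841 and 799 TPM in control mice. The lowest treated mouse was therefore above the highest control mouse, and PBMC-hCG replicate 4 was the highest of all. With library medians aligned the number that rose was 29, and without control replicate 2 it was 30.

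The promoters of 4 of the most strongly raised genes are shown because they carry the interferon-stimulated response element, the DNA element through which STAT2 and IRF9 act with their partners. The sequences are the 250 bases before the RefSeq start site of each gene in GRCm38.p6, read in the direction of the gene, and capitals mark matches to GAAANNGAAA on either strand. The windows lie at chr19:34640639-34640888 on the plus strand for Ifit1, chr19:34607707-34607956 on the plus strand for Ifit3b, chr19:34583279-34583528 on the plus strand for Ifit3 and chr12:26456453-26456702 on the minus strand for Rsad2. The matches begin 104 and 85 bases before the start of Ifit1, 188 and 154 bases before that of Ifit3b, 156 and 122 bases before that of Ifit3, and 120 bases before that of Rsad2.
Ifit1: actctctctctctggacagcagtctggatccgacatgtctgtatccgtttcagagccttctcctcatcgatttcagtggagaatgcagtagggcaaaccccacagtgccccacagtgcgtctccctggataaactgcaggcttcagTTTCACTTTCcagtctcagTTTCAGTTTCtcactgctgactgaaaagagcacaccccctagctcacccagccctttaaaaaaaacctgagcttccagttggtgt
Ifit3b: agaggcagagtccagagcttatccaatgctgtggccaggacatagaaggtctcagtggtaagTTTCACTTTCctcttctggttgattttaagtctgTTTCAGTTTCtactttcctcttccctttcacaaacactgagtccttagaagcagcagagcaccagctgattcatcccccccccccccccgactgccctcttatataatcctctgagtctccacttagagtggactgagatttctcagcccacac
Ifit3: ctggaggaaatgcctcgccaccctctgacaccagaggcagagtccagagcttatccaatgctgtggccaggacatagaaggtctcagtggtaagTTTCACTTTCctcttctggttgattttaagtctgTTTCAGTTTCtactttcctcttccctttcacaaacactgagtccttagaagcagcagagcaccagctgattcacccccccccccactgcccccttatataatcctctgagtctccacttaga
Rsad2: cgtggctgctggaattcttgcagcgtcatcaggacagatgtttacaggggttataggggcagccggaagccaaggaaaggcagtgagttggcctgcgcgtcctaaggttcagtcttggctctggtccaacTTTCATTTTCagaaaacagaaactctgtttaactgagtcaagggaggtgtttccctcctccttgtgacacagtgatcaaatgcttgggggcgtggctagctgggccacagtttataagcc

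Of the 30 listed genes, 22 had a promoter window in the reference table used, and 12 of these (54.5%) held at least 1 match, beside 427 of 12856 tested genes with a window (3.32%) and 936 of all 27025 genes with one (3.46%). The genes were listed as interferon-stimulated, so their share of matches describes the list and is no result about these mice. A match is a description of the letters and does not show binding. The window of Oasl1 held no match, and none was at hand for Mx1 or Mx2.

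Mx1 (NCBI gene 17857, chromosome 16, 97447035 to 97462906), a gene of the family of dynamin-like antiviral GTPases whose locus RefSeq annotates in the mouse reference as a transcribed pseudogene, as it does Mx2, was at 9.44, 16.6, 25.1, 19.02 and 6.16 TPM in PBMC-hCG mice and 1.81, 4.19, 2.04, 1.58 and 1.25 TPM in control mice, with log2 fold change 2.71 (standard error 0.36, adjusted p = 3.17e-05). Ifit1 (NCBI gene 15957, chromosome 19, 34640889 to 34650009), which binds foreign capped RNA, was at 47.1, 100.4, 121, 92.3 and 39.1 TPM in PBMC-hCG mice and 11.8, 17.8, 12.6, 10.4 and 9.75 TPM in control mice (2.57, standard error 0.36, adjusted p = 4.97e-05). The values of these genes did not overlap between the groups. Oasl1, of the 2'-5' oligoadenylate synthetase family, was at 12.4, 21.7, 28.5, 17.1 and 10.1 TPM in PBMC-hCG mice and 2.86, 3.92, 4.75, 2.61 and 1.92 TPM in control mice (2.41, standard error 0.32, adjusted p = 2.95e-05). Rsad2, the enzyme viperin, was at 18.3, 36.9, 51.6, 36.8 and 13.8 TPM in PBMC-hCG mice and 4.396, 12.6, 4.79, 4.24 and 5.97 TPM in control mice (2.25, standard error 0.37, adjusted p = 0.000171). PBMC-hCG replicate 3 was the highest library for Mx1, Ifit1, Oasl1 and Rsad2, and PBMC-hCG replicate 5 the lowest of the treated mice. Ifit3b (2.46, adjusted p = 0.00465) and Ifit3 (2.24, adjusted p = 0.00455) are near-identical neighbours, and reads may have been shared between them. Isg15, a ubiquitin-like modifier, was at 109, 182, 207, 224 and 87.5 TPM in PBMC-hCG mice and 35.7, 35.7, 38.8, 30.2 and 31.2 TPM in control mice (2.15, adjusted p = 1.21e-05).

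Irf7, the factor that amplifies the response, rose by 1.63 (adjusted p = 0.000162) and Usp18, its negative regulator, by 1.97 (adjusted p = 1.04e-05). Of the transcription factors, Stat2 was at 39.5, 52.1, 53.1, 55.3 and 37.7 TPM in PBMC-hCG mice and 26.4, 23.5, 24.1, 20.9 and 18.8 TPM in control mice (1.05, adjusted p = 0.000109) and Irf9 rose by 0.67 (adjusted p = 0.000962). The sensors Ifih1 (1.28, adjusted p = 4.86e-05), which encodes MDA5, and Ddx58 (0.89, adjusted p = 0.00229), which encodes RIG-I, rose as well. The smallest rises were those of Ifi27l2a (0.37, adjusted p = 0.00843) and Bst2, the virus tether (0.44, adjusted p = 0.0296). Bst2 did not pass when control replicate 1, 3, 4 or 5 or PBMC-hCG replicate 2 or 4 was left out (adjusted p up to 0.0826).

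**Figure D3:**
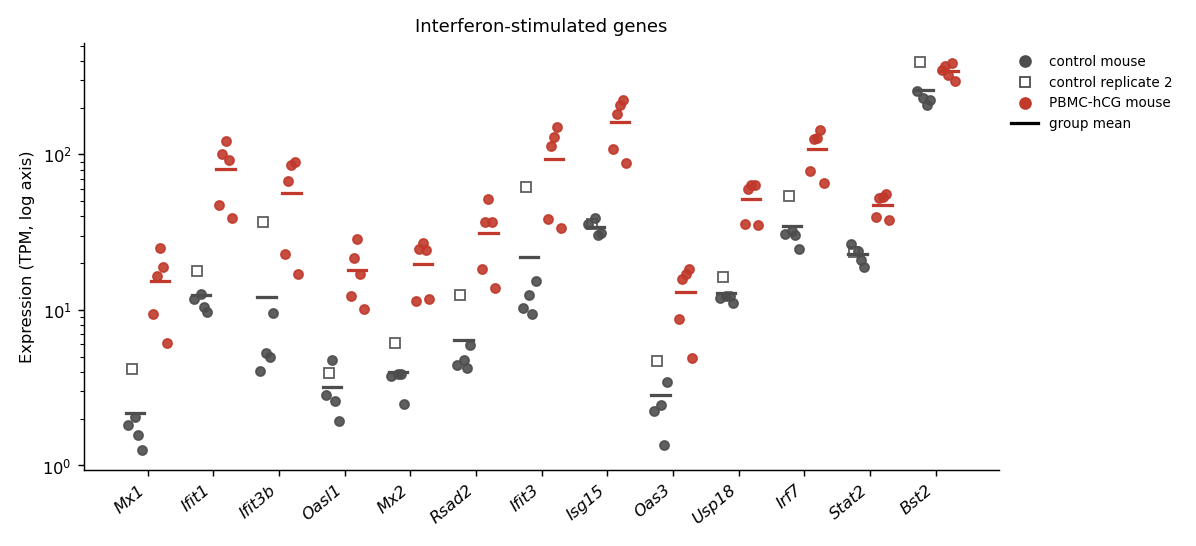
TPM on a log axis for interferon-stimulated genes in 5 control mice (grey, with control replicate 2 as an open square) and 5 PBMC-hCG mice (red), with bars at the group means. Mx1 (2.71 on the log2 scale), Ifit1 (2.57) and Oasl1 (2.41) lie apart in the groups without overlap, and the distance is smaller for Stat2 (1.05).

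Of 23 antigen presentation genes, 7 rose (4 without control replicate 3 and up to 10 without control replicate 2), namely Tap1, Tap2, Tapbp, Psmb8 and Psmb9 of the class I loading pathway, its transcriptional activator Nlrc5 and the costimulatory ligand gene Cd86. The 7 were 30.4% of them, beside 20.2% of all tested genes. With library medians aligned or with quantile normalization 4 rose, beside 2830 and 3208 of the 18706 tested genes. Tap1, the peptide transporter, rose by 0.84 (adjusted p = 0.00229), its partner Tap2 by 0.53 (adjusted p = 0.00414) and the immunoproteasome subunit Psmb8 by 0.43 (adjusted p = 0.00528). The class I genes H2-K1 (0.19, adjusted p = 0.381) and H2-D1 (0.20, adjusted p = 0.333) and the class II genes H2-Ab1 (-0.03, adjusted p = 0.917) and Cd74 (0.06, adjusted p = 0.829) did not pass. Of 23 tested complement genes 13 rose (10 without PBMC-hCG replicate 4 and up to 12 without control replicate 2), with a median of 0.34. Cfb, factor B of the alternative pathway, was at 40.2, 67.9, 50.2, 64.8 and 31.4 TPM in PBMC-hCG mice and 27.02, 28.7, 25.8, 22.7 and 23.1 TPM in control mice (0.94, standard error 0.18, adjusted p = 0.000641). C2, the factor B counterpart of the classical pathway, was at 21.8 to 35.9 TPM in PBMC-hCG mice and 13.5 to 21.6 TPM in control mice (0.76, adjusted p = 0.00117). Both differed without overlap. The serine protease gene C1s1 (0.59, adjusted p = 2.71e-05), the anaphylatoxin receptor C3ar1 (0.49, adjusted p = 0.0034) and the membrane regulator Cd55 (0.80, adjusted p = 0.00999) rose, as did C3. Psmb9 did not pass when control replicate 3, 4 or 5 or PBMC-hCG replicate 2, 3, 4 or 5 was left out (adjusted p up to 0.115). Nlrc5 did not pass when control replicate 2, 3, 4 or 5 or PBMC-hCG replicate 1, 2, 3, 4 or 5 was left out (adjusted p up to 0.137). Cd86 did not pass when control replicate 1, 3 or 5 or PBMC-hCG replicate 1, 2, 4 or 5 was left out (adjusted p up to 0.12).

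Of 37 tested chemokine and receptor genes among 46 listed, 7 rose (4 without control replicate 3 and up to 8 without control replicate 2) and 4 fell (2 without control replicate 1 and up to 4 without control replicate 5). These were 18.9% and 10.8% of them, beside 20.2% and 11.6% of all tested genes, near the background at any fold change. The change was at least 2-fold in 3 that rose and 3 that fell, beside 2.58% and 1.86% of all tested genes. Ccl11, the eosinophil attractant eotaxin, was at 69.6, 42.6, 36.2, 44.7 and 39.2 TPM in PBMC-hCG mice and 18.3, 18.3, 18.5, 19.5 and 15.99 TPM in control mice (1.32, standard error 0.21, adjusted p = 0.00013), without overlap. Cxcl12, the ligand of Cxcr4, was at 547, 757, 677, 756 and 644 TPM in PBMC-hCG mice and 310.1, 469, 342, 356 and 348 TPM in control mice (0.89, standard error 0.14, adjusted p = 0.000149), and Cxcr4 rose by 1.08 (adjusted p = 0.00297). Ccl28, a mucosal attractant of antibody-secreting cells, was at 0.603, 0.279, 0.484, 2.67 and 1.12 TPM in PBMC-hCG mice and 1.51, 8.17, 1.75, 3.19 and 5.79 TPM in control mice (-1.97, standard error 0.51, adjusted p = 0.00667). The monocyte attractant Ccl2 was at 2.45 to 3.84 TPM in PBMC-hCG mice and 3.75 to 15.03 TPM in control mice and fell by 1.19 (adjusted p = 0.0177). Of 27 tested genes of interleukin 1, interleukin 17 and TNF signalling, 7 rose and 2 fell (1 without control replicate 1 and up to 3 without PBMC-hCG replicate 1), which were 25.9% and 7.41%. Il17rd, a feedback regulator of FGF signalling, rose by 1.16 (adjusted p = 1.76e-05), and the receptor genes Il17ra (0.64, adjusted p = 0.00338) and Il6ra (0.62, adjusted p = 0.0124) also rose. The cytokine genes Tnf (-0.21, adjusted p = 0.567) and Il1b (0.39, adjusted p = 0.561) did not pass. In the type 2 list, where Il13ra2 fell, 5 of 10 tested genes rose (3 without PBMC-hCG replicate 1 and up to 5 without control replicate 1). One of these was Arg1, an arginase of alternatively activated macrophages (0.87, adjusted p = 0.00655), which was at 1.65 to 3.07 TPM in PBMC-hCG mice and 0.684 to 1.52 TPM in control mice. Ccl2 did not pass when control replicate 1 was left out (adjusted p = 0.0556).

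Immunoglobulin transcripts were the largest falls. Of 389 immunoglobulin symbols, 35 were above 0 in all 20 libraries and were tested, and 29 of these fell (24 without PBMC-hCG replicate 2 and up to 29 without PBMC-hCG replicate 1) and 1 rose, with a median of -3.11. The requirement of a value above 0 in every library left out most variable segments, so the counts describe the tested genes only. The summed level of all listed immunoglobulin genes was 2045, 479, 1156, 1091 and 1571 TPM in PBMC-hCG mice and 11618, 5611, 13922, 10568 and 3636 TPM in control mice, without overlap. The constant region of the light chain, Igkc, was at 469.8, 102, 250.2, 239 and 333 TPM in PBMC-hCG mice and 2631, 1331, 3144, 2035 and 751 TPM in control mice (-2.82, standard error 0.77, adjusted p = 0.00966). Igha, the constant region of IgA, was at 249.7, 25.6, 148, 134 and 176 TPM in PBMC-hCG mice and 1372, 636, 1742, 1211 and 399.8 TPM in control mice (-3.0, standard error 0.84, adjusted p = 0.0108). The joining chain Jchain, which links IgA and IgM polymers, was at 33.6, 4.79, 19.4, 18.4 and 25.1 TPM in PBMC-hCG mice and 195, 95.8, 237, 197 and 72.7 TPM in control mice (-3.07, standard error 0.80, adjusted p = 0.00717). Of the 4 plasma cell markers, 3 were tested, of which Jchain and Mzb1 (-1.35, adjusted p = 0.0301) fell, and Sdc1 was at 62.5 to 104 TPM in PBMC-hCG mice and 77.6 to 103 TPM in control mice. Mzb1 did not pass when control replicate 1, 3 or 4 or PBMC-hCG replicate 2, 3, 4 or 5 was left out (adjusted p up to 0.0653).

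The heavy chain gene Ighm, of IgM, was the single immunoglobulin gene that rose, at 50.9, 69.2, 44.5, 53.9 and 43.1 TPM in PBMC-hCG mice and 28.1, 43.5, 32.04, 24.8 and 29.6 TPM in control mice (0.73, standard error 0.18, adjusted p = 0.00465). Single variable segments varied widely between mice. The largest fall of all, Igkv5-43, was at 1.01, 1.82, 2.05, 0.738 and 0.562 TPM in PBMC-hCG mice and 559.96, 42.3, 428, 736 and 53.3 TPM in control mice (-7.44, standard error 1.48, adjusted p = 0.00104), and Ighv6-3 was at 6.63, 3.66, 2.42, 0.843 and 1.29 TPM in PBMC-hCG mice and 30.97, 127, 79.8, 305 and 224 TPM in control mice (-5.59, standard error 0.74, adjusted p = 2.95e-05). Segments of 1 family share much of their sequence, so reads may have been divided among them. The receptor that carries IgA across the epithelium, Pigr, did not pass (0.10, adjusted p = 0.908).

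Of 32 tested genes of sterol and fatty acid synthesis, 14 fell (7 without control replicate 5 and up to 19 without control replicate 2) and 18 did not pass, with a median of -0.32 (-0.39 without control replicate 2). Squalene epoxidase, Sqle (NCBI gene 20775, chromosome 15, 59315092 to 59331193), was at 5.28, 3.85, 3.498, 2.73 and 3.78 TPM in PBMC-hCG mice and 13.4, 3.64, 12.2, 13.1 and 21.8 TPM in control mice, with log2 fold change -1.55 (standard error 0.41, adjusted p = 0.00793). Control replicate 2 lay among the treated mice, and the other control mice were above them. Cyp51, the lanosterol demethylase, was at 7.46, 7.11, 6.57, 6.56 and 6.22 TPM in PBMC-hCG mice and 13.1, 8.67, 12.6, 13.01 and 22.5 TPM in control mice (-0.97, standard error 0.23, adjusted p = 0.00382), without overlap. Lanosterol synthase, Lss, fell by 0.43 (adjusted p = 0.00933), also without overlap. The isomerase gene Idi1, of the isoprenoid steps, was at 4.04, 4.28, 3.98, 3.42 and 3.33 TPM in PBMC-hCG mice and 8.84, 2.62, 9.28, 8.48 and 18.5 TPM in control mice (-1.07, standard error 0.37, adjusted p = 0.0332), and control replicate 2 was the lowest of all 10 mice. Farnesyl diphosphate synthase, Fdps (-0.60, adjusted p = 0.0387), mevalonate kinase, Mvk (-0.39, adjusted p = 0.0364), and the synthase gene Hmgcs1 (-0.48, adjusted p = 0.0406) fell as well. The regulator Srebf2 (-0.35, adjusted p = 0.0575) and fatty acid synthase, Fasn (0.05, adjusted p = 0.72), did not pass. Idi1 did not pass when control replicate 1, 3, 4 or 5 or PBMC-hCG replicate 3, 4 or 5 was left out (adjusted p up to 0.106). Fdps and Hmgcs1 did not pass when control replicate 1, 3, 4 or 5 or PBMC-hCG replicate 2, 3, 4 or 5 was left out (adjusted p up to 0.122 and 0.126). Mvk did not pass when control replicate 1, 3, 4 or 5 or PBMC-hCG replicate 1, 3, 4 or 5 was left out (adjusted p up to 0.0896).

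Of 75 tested nuclear genes of the respiratory chain, 32 fell (18 without control replicate 5 and up to 47 without control replicate 2) and 43 did not pass, with a median of -0.19. Without control replicate 2, 2 rose, and with quantile normalization 1 did. The ATP synthase subunit gene Atp5g1 fell by 0.77 (adjusted p = 0.00222) and the complex I genes Ndufa11 (-0.47, adjusted p = 0.00586) and Ndufa12 (-0.42, adjusted p = 0.000402) fell by less. With library medians aligned the number that fell was 52. Ribosomal protein genes gave no stable count, since 11 of 79 rose as deposited, 3 without control replicate 5 and up to 39 without control replicate 2, and 0 passed upward by limma with library medians aligned, where 3 had a raw p-value under 0.05. In the unfolded protein response, 7 of 25 genes fell (4 without control replicate 1 and up to 12 without control replicate 2) and 3 rose. The shares were 28% downward and 12% upward, beside 11.6% and 20.2% of all tested genes. The chaperones of the endoplasmic reticulum Pdia6 (-0.74, adjusted p = 0.00349) and Calr (-0.75, adjusted p = 0.00411) and asparagine synthetase, Asns (-1.04, adjusted p = 0.0017), fell, whereas the stress factors Ddit3 (0.62, adjusted p = 0.00143), Trib3 (0.77, adjusted p = 0.00436) and Chac1 (0.87, adjusted p = 0.00719) rose. Of 25 genes of polyamine and amino acid handling, 4 rose and 4 fell (4 without control replicate 1 and up to 8 without control replicate 2), or 16% each way. Srm, spermidine synthase, was at 77.9, 34.996, 31.5, 30.7 and 34.7 TPM in PBMC-hCG mice and 170.2, 78.9, 149, 154 and 173 TPM in control mice (-1.83, standard error 0.29, adjusted p = 0.000155), ornithine decarboxylase, Odc1, fell by 0.85 (adjusted p = 0.000755) and Amd1 fell by 0.76 (adjusted p = 0.00126), and the acetyltransferase Sat1 was at 288 to 373 TPM in PBMC-hCG mice and 184 to 238 TPM in control mice (0.64, adjusted p = 6.06e-05).

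**Figure D4:**
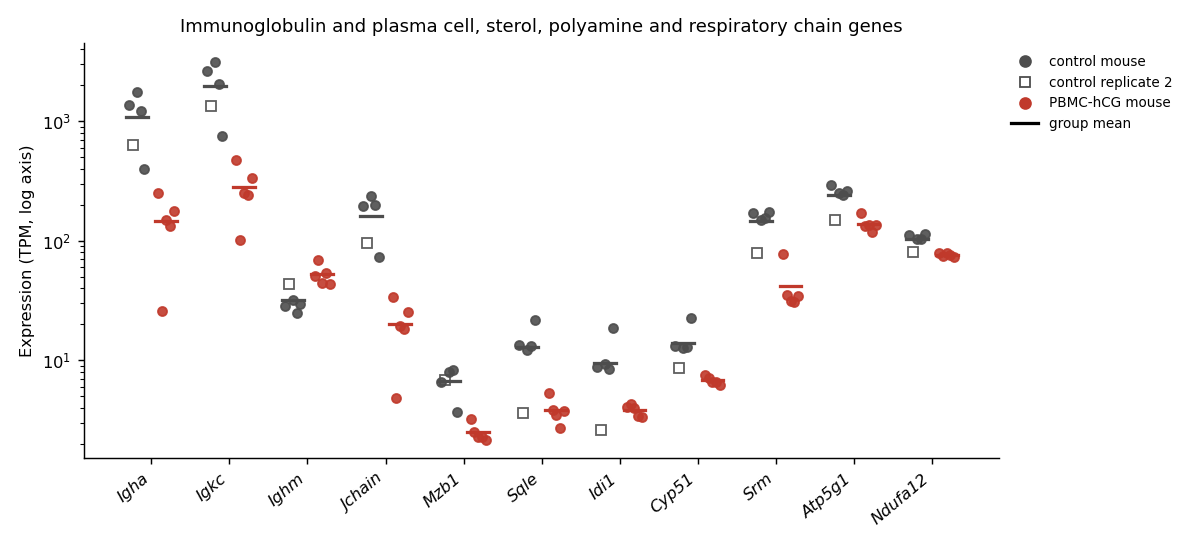
TPM on a log axis for immunoglobulin and plasma cell genes and for genes of sterol, polyamine and energy metabolism in 5 control mice (grey, with control replicate 2 as an open square) and 5 PBMC-hCG mice (red), with bars at the group means. Igha, Igkc and Jchain lie lower in PBMC-hCG mice and Ighm lies higher, and Cyp51 (-0.97 on the log2 scale) and Srm (-1.83) lie lower without overlap.

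Of 24 tested genes of uterine contraction, 5 rose and 9 fell (6 without control replicate 3 and up to 10 without PBMC-hCG replicate 1), which were 20.8% and 37.5%. The oxytocin receptor gene Oxtr (NCBI gene 18430, chromosome 6, 112473683 to 112491035) was at 89.1, 22.2, 19.9, 29.2 and 31.8 TPM in PBMC-hCG mice and 5.802, 19.6, 6.21, 9.06 and 8.499 TPM in control mice, with log2 fold change 1.87 (standard error 0.47, adjusted p = 0.00551). The endothelin receptor gene Ednra also rose (0.68, adjusted p = 0.000378). The prostaglandin E receptor gene Ptger3 was at 12.2, 13.7, 12.6, 11.3 and 15.9 TPM in PBMC-hCG mice and 44.6, 45.4, 59.3, 48.1 and 42.01 TPM in control mice (-1.86, standard error 0.13, adjusted p = 3.67e-08). Thus Oxtr and Ptger3 each differed without overlap, in opposite directions. The muscarinic receptor gene Chrm2 (-1.31, adjusted p = 0.000271) and the endothelin receptor gene Ednrb (-1.23, adjusted p = 0.000131) fell. The smooth muscle genes Actg2 (-1.09, adjusted p = 0.0026), Cnn1 (-0.66, adjusted p = 0.00324) and Acta2 (-0.61, adjusted p = 0.00303) fell, and Myh11, the smooth muscle myosin, did not pass (-0.09, adjusted p = 0.557). Connexin 43, Gja1, did not pass (-0.59, adjusted p = 0.13). Among 20 prostaglandin genes, 3 fell and only Hpgd, the dehydrogenase that inactivates prostaglandins, rose (0.54, adjusted p = 0.0418), which were 15% downward and 5% upward, beside 11.6% and 20.2% of all tested genes. With a mouse left out 0 to 2 rose, and with library medians aligned 4 fell. Besides Ptger3 none of those that passed moved 2-fold. Hpgd did not pass when control replicate 1, 4 or 5 or PBMC-hCG replicate 2, 3, 4 or 5 was left out (adjusted p up to 0.116).

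Of 14 tested channel and aquaporin genes, 5 rose (3 without control replicate 5 and up to 6 without PBMC-hCG replicate 1) and 1 fell. The shares were 35.7% and 7.14%, beside 20.2% and 11.6% of all tested genes. Aqp11 rose by 1.05 (adjusted p = 0.0117), the water channel Aqp1 by 0.65 (adjusted p = 0.00181) and the chloride channel gene Ano1 by 0.39 (adjusted p = 0.0216). The bicarbonate transporter gene Slc4a4 fell by 0.64 (adjusted p = 0.00108), and Aqp5 (-0.32, adjusted p = 0.488) and Aqp8 (-1.09, adjusted p = 0.231) did not pass. Of 22 junction genes, 10 rose (7 without control replicate 5 and up to 14 without control replicate 2) and 2 fell (0 without PBMC-hCG replicate 1 and up to 2 without control replicate 1). In percent, 45.5% of them rose and 9.09% fell. Without PBMC-hCG replicate 1, 2 junction genes were lower by limma at a raw p-value under 0.05. Tjp1, a scaffold of tight junctions, was at 65.3, 73.8, 72.4, 71.6 and 68.03 TPM in PBMC-hCG mice and 49.8, 56.4, 45.6, 48.8 and 48.1 TPM in control mice (0.50, standard error 0.08, adjusted p = 0.000102) and Cldn4 was at 49.3 to 69.5 TPM in PBMC-hCG mice and 28.9 to 47.95 TPM in control mice (0.62, adjusted p = 0.0232). Both differed without overlap. Cldn3 fell by 0.61 (adjusted p = 0.0233). Of 14 tested genes of the cornified and simple epithelium lists, 4 rose (3 without control replicate 5 and up to 6 without control replicate 2) and 3 fell. In percent, 28.6% of them rose and 21.4% fell. The keratins of simple epithelium Krt19 (1.12, adjusted p = 0.00248), Krt18 (0.84, adjusted p = 0.000308) and Krt8 (0.82, adjusted p = 0.000167) rose, and Sprr2g was at 6.28, 0.487, 0.1505, 0.482 and 0.596 TPM in PBMC-hCG mice and 30.9, 22.5, 21.1, 43.6 and 2.31 TPM in control mice and fell by 4.40 (adjusted p = 0.00267). Ano1 did not pass when control replicate 5 or PBMC-hCG replicate 2 or 3 was left out (adjusted p up to 0.0573). Cldn4 did not pass when control replicate 1 or 5 or PBMC-hCG replicate 3 or 4 was left out (adjusted p up to 0.0715). Cldn3 did not pass when control replicate 3 or 4 or PBMC-hCG replicate 1 or 5 was left out (adjusted p up to 0.0595).

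Of 38 tested matrix genes, 7 rose and 3 fell (3 without control replicate 1 and up to 9 without control replicate 2). These were 18.4% and 7.89% of them, beside 20.2% and 11.6% of all tested genes. Mmp11, stromelysin 3, was at 103, 96.8, 94.4, 124 and 86.4 TPM in PBMC-hCG mice and 21.5, 66.6, 25.7, 23.5 and 20.5 TPM in control mice (1.83, standard error 0.26, adjusted p = 6.27e-05). The proteoglycan genes Lum (1.19, adjusted p = 0.000224) and Dcn (1.06, adjusted p = 1.89e-07) and fibronectin, Fn1 (1.13, adjusted p = 0.000381), rose without overlap. Col12a1 was at 5.85, 3.76, 4.77, 3.33 and 5.69 TPM in PBMC-hCG mice and 18.7, 6.697, 19.7, 18.7 and 17.5 TPM in control mice (-1.71, standard error 0.28, adjusted p = 0.00016). The main fibrillar collagen genes Col1a1 (-0.17, adjusted p = 0.602) and Col3a1 (-0.07, adjusted p = 0.865) did not pass. Of 23 tested angiogenic genes, 10 rose and 2 fell, or 43.5% and 8.7%. Adm, adrenomedullin, was at 58.95, 48.9, 36.2, 68.7 and 58.7 TPM in PBMC-hCG mice and 15.1, 24.5, 18.1, 16.5 and 14.3 TPM in control mice, without overlap, and its receptor subunits Calcrl (0.34, adjusted p = 0.00398) and Ramp2 (0.33, adjusted p = 0.00175) rose by less than Ramp3, whereas Ramp1, the subunit that makes Calcrl a receptor for calcitonin gene-related peptide, fell by 1.14 (adjusted p = 7.71e-05). The endothelial receptors Nrp2 (0.70), Nrp1 (0.68), Tie1 (0.55), Kdr (0.49), Tek (0.47) and Flt4 (0.46) all rose, and Vegfa did not pass (0.23, adjusted p = 0.359).

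Of 35 tested genes of Wnt, BMP and hedgehog signalling, 12 rose and 2 fell (2 without control replicate 1 and up to 4 without control replicate 2). The shares were 34.3% and 5.71%, beside 20.2% and 11.6% of all tested genes. The ligands Wnt7a, of the luminal epithelium, and Wnt5a, of the stroma, rose by 0.87 (adjusted p = 0.000813) and 0.78 (adjusted p = 0.000102). Axin2, a feedback target of Wnt signalling, was at 53.8, 40.7, 37.6, 45.6 and 37.7 TPM in PBMC-hCG mice and 21.6, 30.3, 17.9, 19.97 and 19.4 TPM in control mice (0.99, standard error 0.15, adjusted p = 8.66e-05). The antagonist Dkk2 was at 26.7, 35.8, 38.5, 35.5 and 32.5 TPM in PBMC-hCG mice and 17.5, 12.8, 14.8, 17.2 and 12.3 TPM in control mice (1.18, standard error 0.11, adjusted p = 6.31e-07). Both rose without overlap. Hhip, an inhibitor of hedgehog ligands, was at 0.612, 0.448, 0.731, 0.389 and 0.51996 TPM in PBMC-hCG mice and 5.14, 0.256, 4.45, 4.75 and 1.48 TPM in control mice and fell by 1.87 (adjusted p = 0.011). The hedgehog target Gli1 did not pass (-0.11, adjusted p = 0.643).

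Retinoid genes changed in both directions, 8 of 19 upward and 4 downward. Cyp26b1, the stromal retinoic acid hydroxylase, was at 4.93, 9.96, 8.81, 8.199 and 3.69 TPM in PBMC-hCG mice and 1.68, 3.05, 0.497, 0.449 and 1.103 TPM in control mice (2.53, standard error 0.49, adjusted p = 0.000898). Aldh1a3, a retinaldehyde dehydrogenase, was at 2.65, 2.72, 4.56, 4.905 and 3.45 TPM in PBMC-hCG mice and 0.529, 1.9995, 0.648, 0.539 and 1.63 TPM in control mice (1.84, standard error 0.43, adjusted p = 0.00374). Together with Cyp26a1, these genes rose without overlap. The retinol-converting genes Dhrs9 (-0.95, adjusted p = 0.00303), Lrat (-0.79, adjusted p = 0.0135) and Rdh10 (-0.67, adjusted p = 0.0187) fell. Of 10 steroid-metabolizing enzymes tested, Akr1c14, a 3-alpha-hydroxysteroid dehydrogenase, was at 128, 91.7, 71.8, 114 and 90.3 TPM in PBMC-hCG mice and 19.9, 38.6, 24.9, 24.1 and 28.03 TPM in control mice (1.87, standard error 0.19, adjusted p = 2.44e-06). Among 19 clock genes, 6 rose (5 without control replicate 5 and up to 9 without control replicate 2) and 2 fell (31.6% and 10.5%). Dbp (1.25, adjusted p = 0.00623), Nr1d1 (1.15, adjusted p = 0.00255) and Arntl (0.57, adjusted p = 0.00191) rose, and Per1 and Cry1 (-0.46, adjusted p = 0.0343) fell. All mice were sampled at the same labelled hour. Cry1 did not pass when control replicate 1, 2 or 5 or PBMC-hCG replicate 2, 3 or 5 was left out (adjusted p up to 0.0754).

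The cell cycle list depended on control replicate 2. Of 38 genes 3 fell as fitted on all mice, and 18 fell without that library, with medians of -0.17 and -0.51. The falls were those of Mcm2, Pcna and Mcm7, of replication licensing and the replication clamp. Mcm2 was at 19.2, 19.5, 20.003, 11.9 and 17.5 TPM in PBMC-hCG mice and 47.1, 11.3, 39.9, 35.6 and 56.9 TPM in control mice (-0.95, adjusted p = 0.0271), and the proliferation marker Mki67 was at 13.6, 14.8, 18.7, 8.59 and 13.6 TPM in PBMC-hCG mice and 11.8, 1.14, 11.4, 10.4 and 18.2 TPM in control mice (0.76, adjusted p = 0.25, and 0.09 (adjusted p = 0.793) without control replicate 2). Control replicate 2 was the lowest control mouse for both genes. Mcm2 did not pass when control replicate 1, 3, 4 or 5 or PBMC-hCG replicate 4 was left out (adjusted p up to 0.084).

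**Figure D5:**
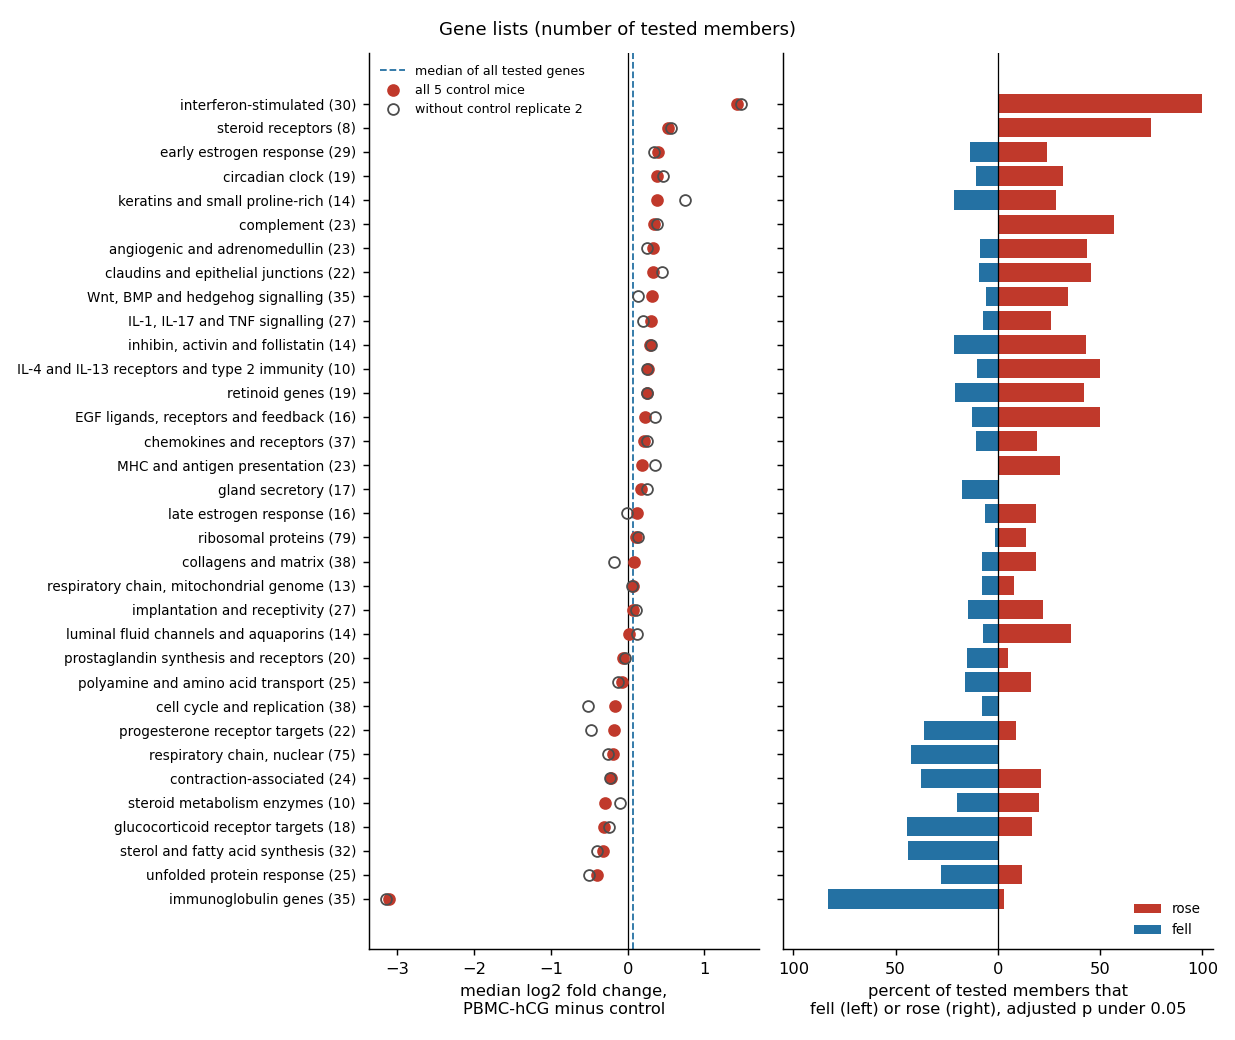
Left, median log2 fold change (horizontal, PBMC-hCG minus control) of the tested members of each gene list (vertical), with all 5 control mice (red) and without control replicate 2 (open), the dashed line marking the median of all tested genes. Right, percent of the tested members that rose (red) or fell (blue), with the interferon-stimulated list at 30 risen of 30 and the immunoglobulin list at 29 fallen of 35.

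Markers of the cell types of the horn moved in several cases beside these lists, and their part in the results above was not tested. Of the 6 epithelial markers, 4 rose, and the list summed to 963 to 1239 TPM in PBMC-hCG mice and 554 to 1021 TPM in control mice. Of the 5 smooth muscle markers, 4 fell, with sums of 3101 to 3949 TPM and 3449 to 7583 TPM. All 4 endothelial markers rose, Cdh5 by 0.68 (adjusted p = 0.000253), Emcn by 0.53, Kdr by 0.49 and Pecam1 by 0.45. Of the 6 stromal markers, Vim rose by 0.49 (adjusted p = 0.0011) and the 3 progesterone-dependent genes Hoxa10, Hoxa11 and Hand2 fell. Of the 5 gland markers, the transcription factor gene Foxa2 fell without overlap (-0.75, adjusted p = 0.00841). The 4 secreted gland markers, Cxcl15, Spink1, Prss28 and Prss29, did not pass, and their levels in control mice spanned a wide range. Prss29 was at 439, 13969, 329, 514 and 3408 TPM in control mice and 1762, 1108, 1009, 4635 and 1212 TPM in PBMC-hCG mice. Control replicate 2 was the highest of the control mice for Prss29 and control replicate 3 the lowest of all 10 mice. Without control replicate 2 Spink1 passed, with a log2 fold change of 1.10 (adjusted p = 0.0458), and the median of the gland markers was 1.10 instead of 0.67.

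Markers of B and T cells were low in both groups. The B cell gene Ms4a1 was at most 0.468 TPM in any of the 10 libraries, and the 2 tested B cell markers, Cd79a and Cd79b, did not pass. Of 6 T cell markers 2 rose, Cd4 (0.68, adjusted p = 0.0109) and Trac (0.55, adjusted p = 0.0315), both being at most 6.44 TPM in any library. Of 5 markers of natural killer cells 2 rose, Eomes (0.68, adjusted p = 0.00368) and Ncr1 (0.51, adjusted p = 0.0399), and of 6 of macrophages and monocytes 2 rose, Csf1r (0.53, adjusted p = 0.00157) and Adgre1 (0.32, adjusted p = 0.00518). The other 4 did not pass, among them Cd14 at 33.96 to 39.1 TPM in PBMC-hCG mice and 28.4 to 54.8 TPM in control mice, and the monocyte gene Ly6c2 at 12.1 to 16.3 TPM and 12.4 to 28.5 TPM. Of these 6 markers 1 fell without control replicate 2, and 2 without control replicate 5. The shares that rose were 33.3% of T cell, 40% of natural killer and 33.3% of macrophage markers, beside 20.2% of all tested genes. Of 3 tested neutrophil markers S100a9 rose by 1.64 (adjusted p = 0.0122) between levels of 0.5296 to 3.05 TPM and 2.67 to 6.87 TPM. The donor cells and the host were both mice, so transcripts of injected leukocytes and of uterine leukocytes cannot be told apart. Ovgp1, the oviduct glycoprotein gene, was at 4.76 to 14.5 TPM in PBMC-hCG mice and 19.01 to 25.6 TPM in control mice (-1.64, adjusted p = 0.000465). Trac did not pass when control replicate 3 or 4 or PBMC-hCG replicate 1, 3 or 4 was left out (adjusted p up to 0.0802). Ncr1 did not pass when control replicate 1, 4 or 5 or PBMC-hCG replicate 3, 4 or 5 was left out (adjusted p up to 0.0951).

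The differences from control stood beside those of the IF group, which shared the same control mice, so the values of both contrasts are given side by side and not compared as independent results. Against control, 2509 genes were higher (13.4%) and 1595 lower (8.53%) in IF mice. Log2 fold changes from control for progesterone-responsive genes were -4.20 in IF mice and -3.65 in PBMC-hCG mice for Il13ra2, -3.95 in IF mice and -3.10 in PBMC-hCG mice for Zbtb16, -3.10 in IF mice and -2.88 in PBMC-hCG mice for Tcf23 and -1.81 in IF mice and -2.17 in PBMC-hCG mice for Fkbp5. The values lay farther apart for Fst, at -1.43 in IF mice and -2.82 in PBMC-hCG mice. For receptors the changes from control were 1.71 in IF mice and 1.29 in PBMC-hCG mice for Pgr. They were 0.23 in IF mice and 0.62 in PBMC-hCG mice for Nr3c1. For interferon-stimulated genes they were 1.27 in IF mice and 2.71 in PBMC-hCG mice for Mx1, 1.09 in IF mice and 2.57 in PBMC-hCG mice for Ifit1 and 1.19 in IF mice and 2.41 in PBMC-hCG mice for Oasl1. The difference between PBMC-hCG and IF mice, fitted in the same model, called 1423 genes higher (7.61%) and 1121 lower (5.99%) in PBMC-hCG mice. The total of 2544 by limma was lost with most mice left out. It was 0, 8 and 14 without IF replicate 5, 2 and 4. Without PBMC-hCG replicate 3, 2, 4 and 5 it was 0, 1, 18 and 34. It was 2334 without IF replicate 1, 4166 without PBMC-hCG replicate 1 and 5061 without IF replicate 3. In the fits with 0 calls, 4409 genes (without IF replicate 5) and 5211 genes (without PBMC-hCG replicate 3) had a raw p-value under 0.05. For Mx1 that difference was 1.44 (standard error 0.36, adjusted p = 0.029, 0.0135 to 0.0995 with each mouse left out), and for Inhbb it was -2.03 (standard error 0.50, adjusted p = 0.0287, 0.00669 to 0.0991 with each mouse left out). For Igkc it was -0.19 (standard error 0.77, adjusted p = 0.89, 0.408 to 0.986 with each mouse left out). The 30 interferon-stimulated genes had a median of 0.78 in this difference, and 18 of them passed as higher, a number that lay between 0 and 26 with each IF or PBMC-hCG mouse left out.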

How the data were processed

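RNA of 1 uterine horn per mouse was sequenced by the authors with a stranded mRNA kit, with 5 mice in each of 4 groups, of which the PBMC-hCG and control groups are compared here. The authors trimmed reads with Trimmomatic, mapped them to mm10 with HISAT2 and assembled transcripts with StringTie, versions not given in the sources used here, and deposited 1 table of TPM values, which sum to the same total in each library. TPM keeps no read depth, so no count could be tested and no counting interval is given. The study itself applied an exact test to read counts. Groups were taken from the labels of each library, and nothing says how litters or days were shared, so p-values measure the spread between these mice.

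Genes above 0 TPM in all 20 libraries (18706 of 45777) were tested on log2(TPM + 0.1) in limma (version 3.58.1, R version 4.3.3), which modelled a variance trend over all 4 groups in 1 fit, and Benjamini-Hochberg adjustment over all tested genes. The pseudocount understates changes of low genes. Fold changes are PBMC-hCG minus control on that scale. Tables and figures were made with Python 3.11.15, pandas 2.3.3 and matplotlib 3.10.9, and the scripts were tested on simulated data. Positions are those of RefSeq on GRCm38.p6, which is mm10, matched by gene identifier for 18662 of 18706 tested genes. Promoter and motif windows are RefSeq's, and overlapping matches were counted.

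Named genes were the 10 largest rises and falls among genes that passed, averaged 1 TPM or more and had no overlap, key genes, up to 4 members of each list by size of change, and 2 reference genes. Other list members and the falls outside the immunoglobulin genes were chosen after their values were seen. The comparison, the lists and the tests were chosen with earlier results of these data known, so no list was tested as a set. Ighmbp2, a helicase gene, was taken out of the immunoglobulin list, which had caught it by its name. Alternatives were the pseudocount, the filter, the scaling, the samples in the fit, the variance trend, the replicate number as a block, and leaving out each mouse. Leaving out mice in the difference from IF was added after the data were seen. Values of some single genes in the lists are not reported here.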

Additional observations from a re-analysis of the deposited data

Results flagged for a closer look

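The named genes formed 334 groups of 5 values, whose gaps and ranges were taken on the log2 scale of limma's test and not in TPM. The TPM value printed beside each share gives only the level of that mouse. A gap of more than 0.71 of the whole range arises by chance in about 1 in 20 groups of independent, normally distributed values. The groups here come from the same mice, and many genes were picked for their differences. The number of groups flagged can therefore not be set against that rate. Of the 334 groups, 39 held 1 mouse whose gap to its nearest neighbour took more than that share. Control replicate 2 was that mouse in 25 of them. It was the highest control mouse for Msc (0.711, at 38.1 TPM), Ramp3 (0.745, at 77.01 TPM), Padi4 (0.7999, at 8.55 TPM), Ednrb (0.851, at 80.005 TPM), Best1 (0.857, at 6.47 TPM), Aqp1 (0.892, at 385 TPM), Cldn5 (0.763, at 77.6 TPM), Mmp11 (0.808, at 66.6 TPM), Dbp (0.7497, at 108 TPM), Nr1d1 (0.749, at 104 TPM), Hsd17b11 (0.858, at 234 TPM), Krt18 (0.727, at 372 TPM) and Hoxa10 (0.767, at 281 TPM), where the first number is the share of the range. It was the lowest control mouse for Areg (0.753, at 0 TPM), Stat3 (0.7803, at 104 TPM), Fstl3 (0.723, at 10.9 TPM), Apln (0.796, at 0.703 TPM), Col12a1 (0.891, at 6.697 TPM), Col15a1 (0.781, at 129 TPM), Lum (0.7603, at 214 TPM), Asns (0.839, at 18.98 TPM), Atp5g1 (0.719, at 148 TPM), Uqcrq (0.754, at 65.2 TPM), Ndufa12 (0.715, at 80.9 TPM) and Srm (0.812, at 78.9 TPM).

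Control replicate 5 was the lowest control mouse for Aqp11 (0.872, at 5.68 TPM), Scnn1b (0.721, at 2.55 TPM), Sprr2g (0.7496, at 2.31 TPM), Hsd11b2 (0.752, at 278 TPM), Cdh1 (0.714, at 40.2 TPM) and Mzb1 (0.711, at 3.72 TPM). PBMC-hCG replicate 1 was the highest of its group for Wnt4 (0.826, at 23.3 TPM), Ednrb (0.858, at 18.4 TPM), Srm (0.8598, at 77.9 TPM) and Kdr (0.724, at 43.6 TPM), and the lowest for Tjp3 (0.741, at 11.5 TPM) and Rps20 (0.762, at 448 TPM). PBMC-hCG replicate 4 was the lowest for Mcm2 (0.739, at 11.9 TPM) and PBMC-hCG replicate 2 for S100a9 (0.825, at 2.67 TPM).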

How the results depend on the processing

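The 887 DEGs became 477 with a pseudocount of 1, 1435 without the filter on zeros and 2775 at a fold change of 1.5. With each mouse left out they ranged from 845 to 1204, the adjusted calls from 4756 (without control replicate 5) to 7513 (without control replicate 2), and genes without overlap from 3674 to 6522, beside 3425 in all mice. Adjusted calls between PBMC-hCG and IF mice ranged from 0 to 5061. The cause of these shifts was not tested, except that fewer mice weaken a test and a smaller group overlaps less. Of 156 named genes that passed, 120 passed in every alternative, and those lost numbered 13 without the filter, 12 with aligned medians, 11 with only both groups fitted and 4 to 22 with a mouse left out. None of them changed sign in these alternatives. Among those that did not pass, Ltf ranged from -0.60 to 0.23 with each mouse left out, being 0.20 without control replicate 2, 0.23 without control replicate 5 and 0.19 without PBMC-hCG replicate 3, and Msx1 from -0.11 to 0.19, being -0.11 without control replicate 5. Depth limits are unknown for TPM.

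With the replicate number as a block, the adjusted calls numbered 4478 and the DEGs 872, and 21 named calls were lost. Deviations of same-numbered mice correlated between -0.217 and 0.133, and those of differently numbered mice between -0.318 and 0.3997. Whether mice of the same number shared a day or a litter is not given, and these correlations cannot decide it.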

Other observations

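Of 17 tested gland genes, 3 fell and 14 did not pass, while without control replicate 2 3 rose and 3 fell. The lipocalin gene Lcn2 was at 16.5 to 53.5 TPM in PBMC-hCG mice and 26.1 to 86.1 TPM in control mice (-0.55, adjusted p = 0.311), and osteopontin, Spp1, was at 114 to 161 TPM in PBMC-hCG mice and 76.8 to 211 TPM in control mice (0.32, adjusted p = 0.262). Of 13 mitochondrial genes, 1 rose and 1 fell. COX1 rose by 0.26 (adjusted p = 0.0173) and ND1 fell by 0.22 (adjusted p = 0.0336), and the ND1 call was lost with any of 8 mice left out, up to an adjusted p of 0.0861. The common reference genes Gapdh (-0.28, adjusted p = 0.137) and Rplp0 (0.14, adjusted p = 0.0617) did not pass.

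Further genes of single lists rose or fell. The receptor gene Fzd10 of the Wnt pathway was at 6.78 to 10.1 TPM in PBMC-hCG mice and 2.33 to 7.51 TPM in control mice (1.32, adjusted p = 0.000229), and apelin, Apln, a vascular peptide, was at 0.673 to 1.24 TPM in PBMC-hCG mice and 0.703 to 3.93 TPM in control mice (-1.23, adjusted p = 0.0123). The retinoid-responsive gene Rarres1 was at 1.31 to 1.62 TPM in PBMC-hCG mice and 0.243 to 1.33 TPM in control mice (1.14, adjusted p = 0.00521), and the nuclear receptor gene Rora of the clock rose by 0.90 (adjusted p = 0.000216). The hormone receptor gene Mchr1 was at 0.292 to 0.713 TPM in PBMC-hCG mice and 2.38 to 4.89 TPM in control mice (-2.51, adjusted p = 2.92e-05). Hsd17b11, a dehydrogenase of lipid droplets, was at 216 to 257 TPM in PBMC-hCG mice and 95.7 to 234 TPM in control mice (0.90, adjusted p = 0.00109), and mitochondrial arginase, Arg2, was at 8.54 to 10.5 TPM in PBMC-hCG mice and 12.6 to 23.8 TPM in control mice (-0.96, adjusted p = 0.000465).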
